A study of Mus musculus with 8 samples.

Results

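The 4 Tead genes, the coactivator genes Yap1 and Wwtr1 and the cofactor genes Vgll2, Vgll3 and Vgll4 were examined in maps of H3K27ac, a histone acetylation found at active promoters and enhancers, from primary mouse myotubes with and without Nrip1. A differential H3K27ac region was taken for one of these 9 genes when its centre lay inside the gene, when the gene had the nearest protein-coding transcript start, or when its centre lay within 200 kb of one of the gene's starts. By this rule 47 of the 11180 differential regions belonged to the 9 genes, which were 9 of 21938 annotated protein-coding genes. The direction of a region is the list that holds it, so an increased region carried more H3K27ac in Nrip1 KO than in control myotubes.

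The myotubes were formed over 4 days from satellite cells of gastrocnemius muscle. Nrip1KO cultures came from C57BL/6J mice in which floxed Nrip1, the gene of the nuclear receptor coregulator RIP140, is removed by Cre under the muscle creatine kinase promoter, and control (Ctrl) cultures came from Cre-negative littermates. The muscle creatine kinase promoter is active in differentiating muscle and in heart, not in every cell of the animal. Each genotype gave 2 CUT&RUN libraries with an H3K27ac antibody and 2 with control IgG, 8 libraries in 4 groups, and the deposited lists hold regions that differed by at least 2-fold between genotypes. They give no value per library, so the size and error of each change, the spread between replicates, the depth and the IgG background are unknown here, and no difference below has a test over libraries.

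TEAD proteins are transcription factors that bind DNA but activate genes only weakly alone. They draw in YAP (Yap1) or TAZ (Wwtr1), which the kinases of the Hippo pathway keep out of the nucleus, or the Vestigial-like proteins encoded by the Vgll genes, which bind overlapping parts of the same TEAD surface. In muscle, TEAD factors are known for the MCAT element of contractile genes, YAP for the growth of activated satellite cells, and Vgll2 and Vgll3 as muscle cofactors of TEAD.

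The DNA letters of the TEAD element, ACATTCC or GCATTCC on either strand, occurred in the regions of some of these genes themselves. Windows of 61 bases around the match nearest to the centre of each matching region inside or nearest to these genes are printed below, since these regions changed at the factors' own genes. The match in capitals reads 5′ to 3′ and the strand given is that of the match in GRCm38.p6, the assembly of the build mm10. For genes with several regions, those other than the one closest to the start were added after the values were seen.
Tead1 intron, increased, chr7:112698904-112698964, minus strand: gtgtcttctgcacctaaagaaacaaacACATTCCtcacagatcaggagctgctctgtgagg
Tead1 intron, increased, chr7:112790687-112790747, minus strand: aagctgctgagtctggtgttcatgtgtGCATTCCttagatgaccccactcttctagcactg
Tead1 intron, increased, chr7:112814197-112814257, minus strand: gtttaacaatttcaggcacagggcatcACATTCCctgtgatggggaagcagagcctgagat
Tead3 intron, decreased, chr17:28340738-28340798, plus strand: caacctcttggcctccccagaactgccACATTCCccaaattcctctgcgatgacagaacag
Vgll2 upstream, increased, chr10:51984743-51984803, plus strand: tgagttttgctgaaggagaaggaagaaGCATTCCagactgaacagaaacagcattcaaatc
Vgll3 intron, decreased, chr16:65856886-65856946, plus strand: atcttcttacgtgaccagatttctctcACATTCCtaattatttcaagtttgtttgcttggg
Vgll3 downstream, decreased, chr16:65984356-65984416, plus strand: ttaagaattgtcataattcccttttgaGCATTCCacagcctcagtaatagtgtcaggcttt
Vgll3 downstream, increased, chr16:66145453-66145513, minus strand: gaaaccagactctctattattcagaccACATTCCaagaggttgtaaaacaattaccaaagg
Vgll4 intron, decreased, chr6:114869921-114869981, plus strand: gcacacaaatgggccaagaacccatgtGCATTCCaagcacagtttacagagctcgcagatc

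The Tead2 region, increased, held no TEAD letters but covered one of the gene's transcript starts, and it carried the letters CAGCTG, an E-box of the kind bound by MyoD. All of its 865 bases are annotated as 5′ UTR in at least one Tead2 transcript, so only 26 bases around the E-box, in capitals, are shown.
Tead2 first exon, increased, E-box at chr7:45216893-45216898, plus strand: gcttctccagCAGCTGctgcccttct

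Over all 9 genes, the KO myotubes had 22 increased and 25 decreased regions. The increased share was 46.8% (95% Wilson interval, 33.3 to 60.8, counting error only), where 35.0% of all differential regions were increased. Most of the genes had regions of a single direction. Tead1, Tead2 and Vgll2 had increased regions alone. Tead4, Yap1, Wwtr1 and Vgll4 had decreased regions alone, and only Tead3 and Vgll3 had both. Of the protein-coding genes with 2 or more regions by the same rule, 36.1% had both directions, beside 2 of 8 here.

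A count of genes by this wide rule says little on its own. At least 1 increased region was found for 5 of the 9 genes and for 37.7% of all protein-coding genes. At least 1 decreased region was found for 6 of the 9 and for 57.7% of all. These 9 genes are long for the most part, 8 of them spanning more than the protein-coding median of 17425 bp, and long genes offer more room for a region. The narrower criteria were counted as well, but they do not correct for length, since a longer gene also has more room for a region inside it. No share over genes of similar length was counted. A region nearest to their start was increased for 4 of the 9 genes (10.6% of all protein-coding genes) and decreased for 4 (17.8% of all). A region centred inside the gene was increased for 2 of them (6.61% of all) and decreased for 4 (11.9% of all).

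Regions that were the genes' own, inside them or nearest to their start, were counted apart from those that only lay within 200 kb. Of 24 own regions, 16 were increased and 8 decreased. Of the 23 that were nearest to another gene's start, 6 were increased and 17 decreased, beside 35.0% increased over all regions. This contrast was not seen within either set of chromosomes. All 16 own increased regions were on chromosomes 7, 10 and 16, where the 5 regions within 200 kb only were increased as well. At the genes on other chromosomes, all 4 own regions were decreased, as were 17 of the 18 within 200 kb only. Tead1 and Vgll2 together held most of the own increased regions, and Tead4 and Yap1 had no own region at all.

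**Figure D1:**
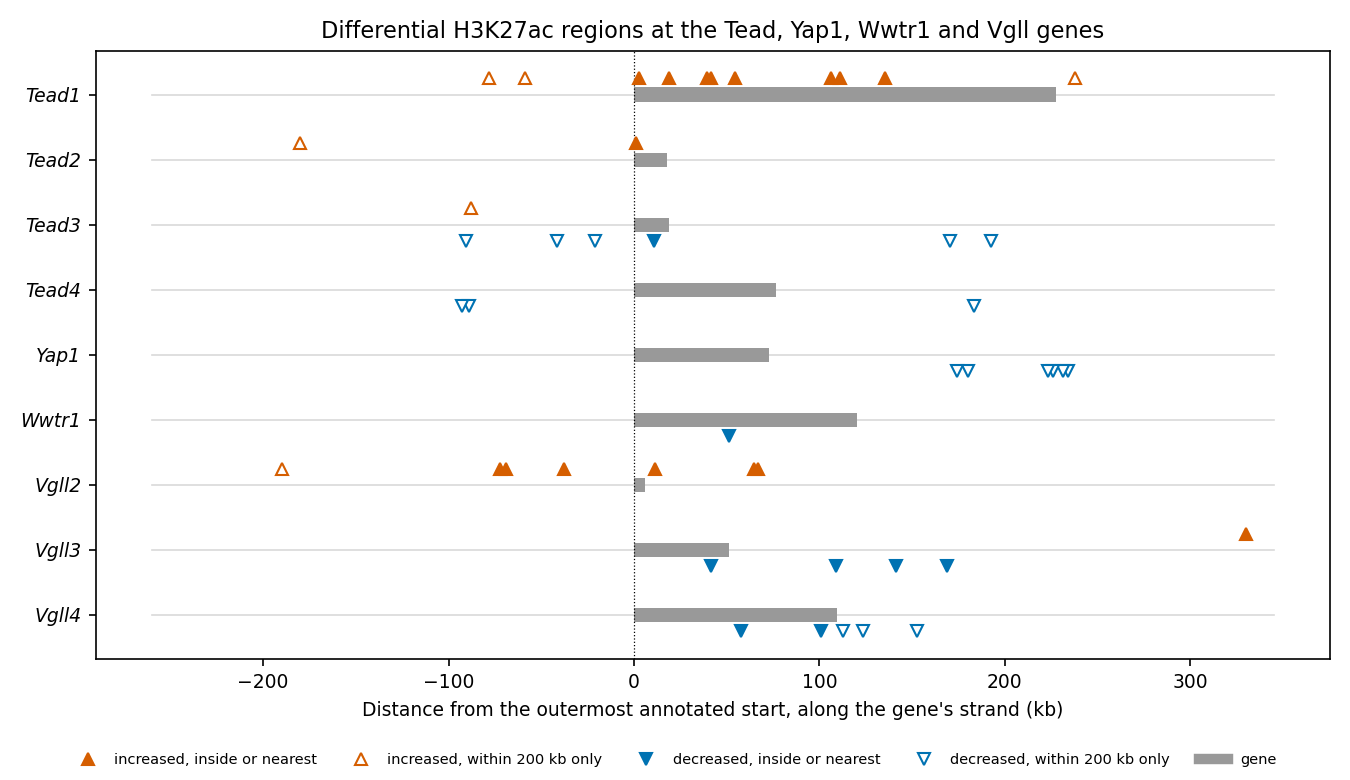
Position of the 47 differential H3K27ac regions along each of the 9 genes, in kb from the outermost annotated start in the direction of transcription; upward symbols are increased and downward symbols decreased regions, filled where the region was inside the gene or nearest to its start, and grey bars are the genes. The 8 filled increased symbols at Tead1 all lie inside the gene, those of Vgll2 flank it, and all symbols of Tead4 and Yap1 are open and decreased.

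The more frequent direction at each gene was also the more frequent one on its chromosome. This was narrow for Wwtr1, since 42.6% of the regions of chromosome 3 were increased. On chromosome 7, which carries Tead1 and Tead2, 97.7% of all differential regions were increased. On chromosome 10, with Vgll2, the share was 69.1%. On chromosome 16, with Vgll3 and also with Nrip1, it was 7.8%. Chromosomes 4, 7, 10 and 16 stand apart from the rest in this way, and none of the 9 genes lies on chromosome 4. The 4 genes on these chromosomes held 21 increased and 4 decreased regions. The 5 other genes held 1 increased and 21 decreased regions, where 30.2% of all 7804 regions on the other chromosomes were increased. The regions of other genes within 1 Mb followed the same lines at Tead1, with 27 increased and none decreased, and at Tead3, with none increased and 24 decreased. Wwtr1 stood apart from its surroundings, since its single region was decreased and the 5 others within 1 Mb were all increased. What set the direction of these chromosomes was not tested, and the part of it in the counts at Tead1, Tead2, Vgll2 and Vgll3 cannot be told apart from a change at the genes.

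**Figure D2:**
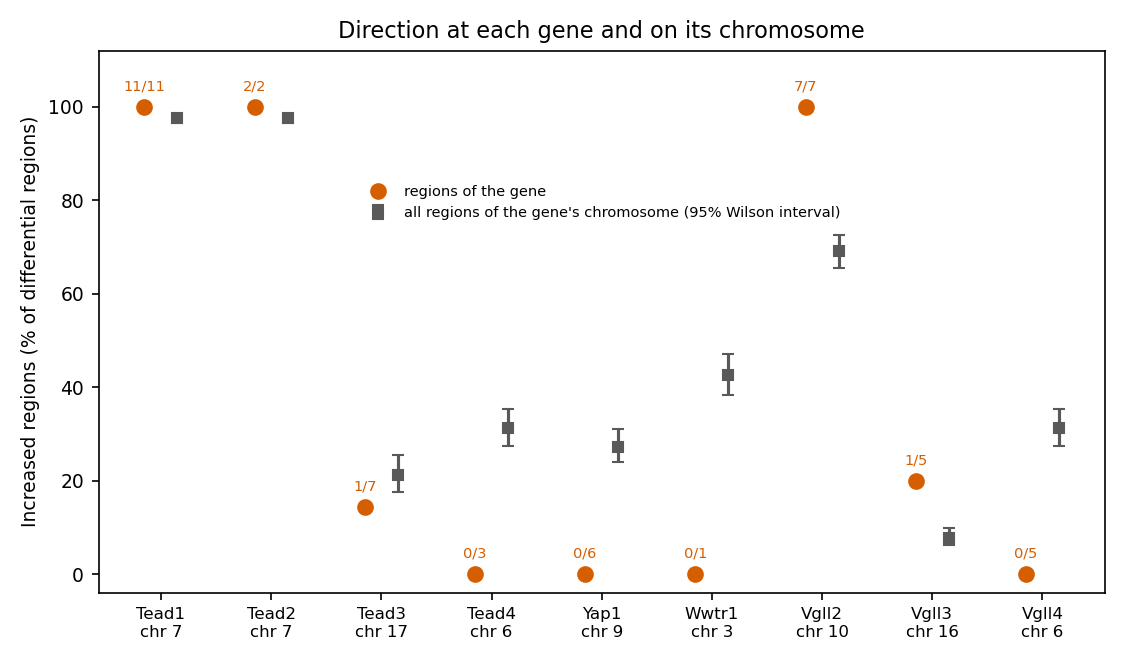
Share of increased regions among the regions of each gene (circles, with the increased count over all its regions) and among all differential regions of the same chromosome (squares, with 95% Wilson intervals for counting error), on a linear axis in percent. Circles at 100% stand on chromosomes 7 and 10, whose own shares are 97.7% and 69.1%.

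Tead1 (ENSMUSG00000055320.17, chr7:112679318-112906807, plus strand), whose product binds MCAT elements in striated muscle, had the most regions of the 9 genes. All 11 were increased, 8 inside the gene and 3 outside it. The 8 inside covered 18100 bp, or 7.96% of the gene, at 35.2 regions per Mb, where chromosome 7 as a whole carried 6.69 increased regions per Mb. These densities are unlike, since the latter is taken over all bases of the chromosome, between genes as well. Within 1 Mb of Tead1, 27 other regions were increased. Inside Tead2 and Tead3 the densities were 55.9 and 52.2 per Mb, from 1 increased and 1 decreased region. A nearest increased region was found for 19.8% of the protein-coding genes of chromosome 7. With 8 of them Tead1 was exceeded by 24 protein-coding genes, of which 18 were on the same chromosome. The highest counts were 18 for the transporter gene Slco3a1, 17 each for the nuclear receptor gene Nr2f2 and for Rgma, 15 for Vstm2b, all on chromosome 7, and 14 for the phospholipase gene Pla2g4a on chromosome 1.

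The 8 regions inside Tead1 spanned 134964 bp from the first to the last, with gaps of 1591 to 50355 bp. All lay in introns and none covered an annotated start. The first, at chr7:112680239-112683546, was 3308 bp wide and centred 2383 bp downstream of the closest start. The second, at chr7:112695201-112700990, was 5790 bp wide, more than 99.7% of all increased regions, and held the first TEAD window printed above. These were the regions nearest to the 5′ end of the gene. A pair of narrow regions followed, of 662 bp at chr7:112718306-112718967 and of 948 bp at chr7:112720559-112721506. A region of 1786 bp stood at chr7:112733169-112734954, and one of 770 bp at chr7:112785310-112786079. The latter was close to a 3483-bp region at chr7:112788902-112792384 that had joined 2 peaks and whose central 500 bp held TEAD, AP-1 and E-box letters together. The last, of 1353 bp at chr7:112813850-112815202, contained the third TEAD window. Among all annotated genes, non-coding ones included, an lncRNA gene or a miRNA gene had the nearer start for 3 of the 8. Outside the gene, 2 increased regions lay 58617 and 78335 bp upstream of Tead1 and nearer to Parva, a gene of focal adhesions, and 1 lay 77788 bp from the closest start, beyond the 3′ end, nearer to Rassf10.

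Tead2 (ENSMUSG00000030796.17, chr7:45215753-45233644, plus strand), the family member best known from embryonic and progenitor cells, had the only region of the 47 that covered a start of one of the 9 genes. This increased region, chr7:45216268-45217132, was 865 bp wide with a GC content of 56.6%, and its centre was 27 bp from the start of a coding transcript at position 45216673. The other annotated starts, 16 in all for this gene, lay outside it, including the outermost one 947 bp from its centre. A further increased region, 180049 bp upstream, was in an intron of Prr12. Within 1 Mb, 7 other regions were increased and 1 was decreased.

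Tead3 (ENSMUSG00000002249.21, chr17:28331671-28350817, minus strand) carried 1 own region, a decreased one of 3885 bp at chr17:28338032-28341916 that had joined 2 peaks and covered 20.3% of this 19147-bp gene. It was intronic and 3458 bp from the closest start, on a chromosome with 21.2% increased regions. It held 1 TEAD match, 4 E-boxes and 5 RUNX matches over its width. The other regions within 200 kb were nearer to other genes. Decreased regions stood near Scube3, Zfp523 and Tulp1 and at 2 places near Fkbp5, which encodes a co-chaperone of the glucocorticoid receptor. The increased one was also at Fkbp5. It covered 1811 bp of an intron at chr17:28437992-28439802 and was separated by 1507 bp from a decreased region of 501 bp at chr17:28441310-28441810, which was 154 bp from an Fkbp5 start.

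Tead4 (ENSMUSG00000030353.15, chr6:128224288-128300823, minus strand), a TEAD gene with a known role in myoblast differentiation, had no own region. Its 3 regions by distance were decreased and at least 88957 bp from its closest start. Of these, 2 were nearest to Nrip2, which encodes another nuclear receptor-interacting protein and is not the deleted gene, and 1 was in an intron of the tetraspanin gene Tspan9. On chromosome 6, 31.3% of regions were increased, and the others within 1 Mb of Tead4 were 2 increased and 6 decreased.

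The coactivator genes had few regions of their own. Yap1 (ENSMUSG00000053110.13, chr9:7931999-8004596, minus strand) had none. The 6 regions within 200 kb, all decreased, began 135570 bp from the closest Yap1 start and lay beyond the 3′ end of the gene, 4 of them in introns of Tmem123 and 2 in introns of Birc2, an inhibitor of apoptosis. Those at 192768 and 195098 bp were just inside the limit of 200 kb. Just outside it were a decreased region 211651 bp from Tead3 and an increased region 232345 bp from Vgll2. No further differential region lay within 1 Mb of Yap1.

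Wwtr1 (ENSMUSG00000027803.14, chr3:57455649-57575910, minus strand), which encodes TAZ, had 1 decreased region of 501 bp at chr3:57524457-57524957. This is the shortest width in the lists. It lay in an intron, 51121 bp from the closest Wwtr1 start, covered 0.417% of the gene and held none of the TEAD, AP-1, E-box or RUNX letters. A processed pseudogene had a nearer start, at 3525 bp. On chromosome 3, 42.6% of all regions were increased.

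Vgll2 (ENSMUSG00000049641.14, chr10:52022502-52028471, plus strand), the cofactor gene most closely tied to skeletal muscle, had 7 regions, all increased, and 6 of them were nearest to its start. None was inside the gene, which spans 5970 bp. A nearest increased region was found for 19.2% of the protein-coding genes of chromosome 10, and 51 protein-coding genes had more than 6 such regions. The regions stood on both sides of Vgll2. Upstream were chr10:51949843-51950343, chr10:51953072-51953572 and chr10:51984257-51985046, centred 72409, 69180 and 37850 bp from the closest start. The last of these held the Vgll2 TEAD window printed above, and the first pair lay in introns of the lincRNA gene Gm40646. Downstream, the closest region of all was chr10:52033426-52034079, 11030 bp from the start and 4954 bp past the end of the gene. The other pair, chr10:52086597-52087448 and chr10:52089055-52089555, lay in introns of the receptor tyrosine kinase gene Ros1. Each of the 6 had a non-coding gene with a nearer start. The seventh, 189938 bp upstream, was nearest to Rfx6 and also had TEAD letters in its centre. The only other regions within 1 Mb were 4 increased ones.

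Vgll3 (ENSMUSG00000091243.2, chr16:65815257-65866368, plus strand) had 5 own regions in a wide stretch with few coding genes. A nearest decreased region was found for 38.9% of the protein-coding genes of chromosome 16. The 1 region inside the gene, chr16:65856095-65857436, was decreased, intronic and 28153 bp from the closest start. Downstream were 3 more decreased regions at chr16:65923881-65924381, chr16:65956078-65956706 and chr16:65983353-65985180, centred 95518, 127779 and 155654 bp from that start. The farthest of these was 1828 bp wide and held 2 TEAD and 4 AP-1 matches. An increased region followed at chr16:66145348-66145848, 316985 bp from the start and so admitted only as the nearest coding start. It was thus 1 of the 66 increased regions of a chromosome with 780 decreased ones. Its GC content of 31.9% was the lowest of the 47 regions, and it too held a TEAD match, while non-coding genes had nearer starts for it and for the 3 decreased regions downstream.

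Vgll4 (ENSMUSG00000030315.15, chr6:114860628-114969994, minus strand), which encodes an antagonist of YAP binding to TEAD, had 5 regions, all decreased. Inside the gene, chr6:114868351-114870053 was 1703 bp wide and 4445 bp upstream of the closest start, and chr6:114911830-114912589 was 760 bp wide and 9606 bp downstream of one. Both were intronic and together covered 2.25% of the gene. The 3 others followed past its 3′ end in Atg7, which encodes an enzyme of autophagy and neighbours Vgll4. The closest of them, chr6:114854176-114859807, was 5632 bp wide, had joined 3 peaks and ended 820 bp from the end of Vgll4. It was the widest decreased region of the 25, centred 841 bp from an Atg7 start. Within 1 Mb of Vgll4, 2 other regions were increased and 12 decreased.

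The regions of these genes lay mostly away from promoters. Of the 22 increased ones, 15 were intronic, 6 intergenic and 1 promoter-proximal (within 1 kb of any annotated start), where all increased regions were 46.2% intronic, 35.9% intergenic and 15.2% promoter-proximal. Of the 25 decreased ones, 16 were intronic, 5 intergenic, 3 promoter-proximal and 1 in a non-coding exon, where all decreased regions were 51.7% intronic, 33.0% intergenic and 11.2% promoter-proximal. The 3 promoter-proximal decreased regions were at starts of Scube3, Fkbp5 and Atg7, not of the 9 genes. The rule admits regions inside these mostly long genes and so favours introns, which limits the comparison with all regions. Some of the introns belonged to other genes, such as Tmem123, Birc2, Atg7 and Ros1.

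GC content was close to that of the lists as a whole, while the median widths were higher in both directions. The median width was 904 bp for the increased regions of the 9 genes (501 to 5790 bp) and 777 bp for all increased regions, and it was 1123 bp (501 to 5632 bp) for their decreased regions and 863.5 bp for all. The median GC content was 44.9% against 43.1% for increased and 47.7% against 47.9% for decreased regions. The single regions spread widely about these medians, and the regions of the 9 genes overlapped between directions in both measures.

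**Figure D3:**
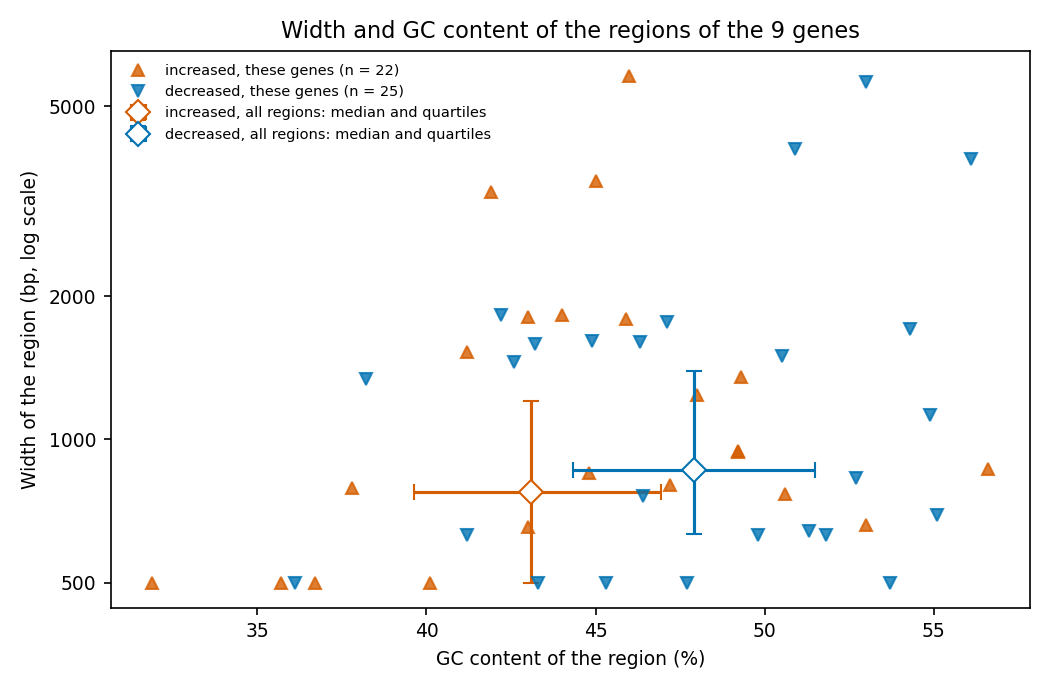
Width (bp, log scale) against GC content (percent) of the 22 increased (upward) and 25 decreased (downward) regions of the 9 genes, with open diamonds and bars for the median and quartiles of all regions of each direction. Regions of both directions run from 501 bp to more than 5 kb, and the wide points reach past the quartiles of all regions.

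The motif letters were counted in the central 500 bp, a length every region has. TEAD letters were present in 4 of the 22 increased regions (18.2%, Wilson interval 7.31 to 38.5) and in 17.0% of all increased regions. They were present in 2 of the 25 decreased regions (8.0%, 2.22 to 25) and in 14.2% of all decreased regions. Both decreased ones belonged to Vgll3. AP-1 letters, TGACTCA or TGAGTCA, for the Fos and Jun factors that often share enhancers with TEAD, were in 18.2% and 8.0% (all regions, 16.5% and 12.8%). E-box letters CAGCTG were in 36.4% of increased and 44.0% of decreased regions (all, 28.8% and 37.9%). RUNX letters, TGTGGT, were in 40.9% and 32.0% (all, 34.2% and 36.6%). Each interval of the 9 genes included the share over all regions, so no motif stood out from the lists at these counts. All letters were searched on both strands, and none of these sequences contains another.

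**Figure D4:**
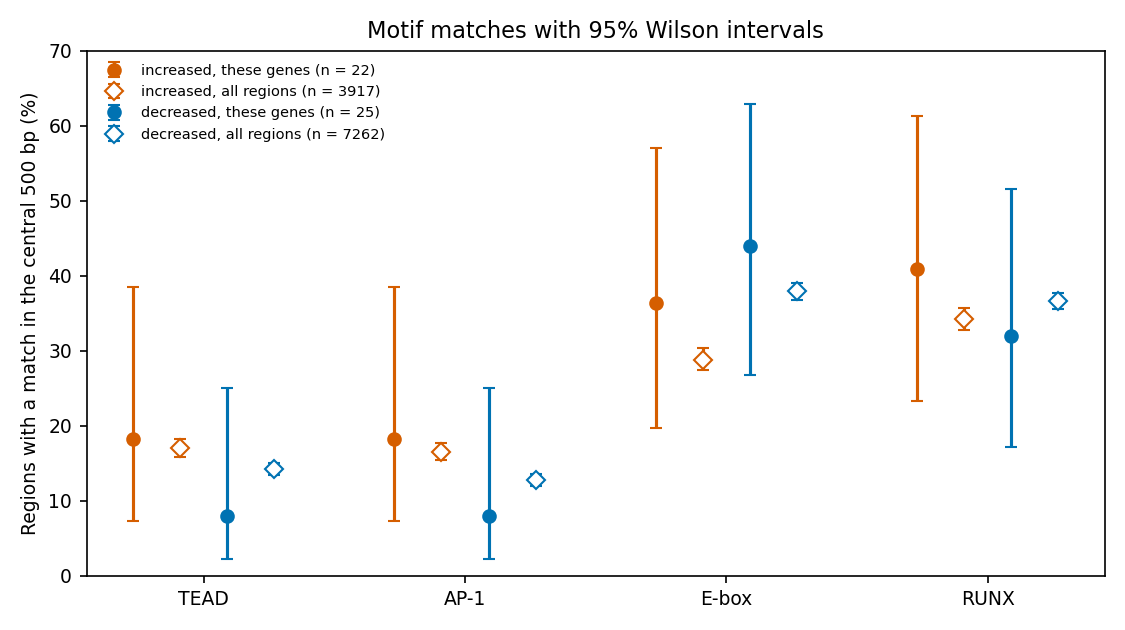
Share of regions (percent) with TEAD, AP-1, E-box or RUNX letters in the central 500 bp for the regions of the 9 genes (filled) and all regions (open) of each direction, with 95% Wilson intervals for counting error only. Every interval of the 9 genes spans the value for all regions of the same direction. Those values run from 12.8% for AP-1 to 37.9% for the E-box, both in decreased regions.

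Over the whole width of the own regions, TEAD matches were found at 5 of the 7 genes that had any. Tead1 had 4 in 3 regions and Vgll3 4 in 3 regions. Tead3, Vgll2 and Vgll4 had 1 each, and Tead2 and Wwtr1 had 0. A match was in 5 of the 16 increased own regions, beside 1121 of all 3917 increased regions. Among decreased regions it was in 4 of 8 own, beside 2006 of all 7262. Matches per kb were 0.221 at Tead1 and 0.833 at Vgll3. They were 0.258 over the increased and 0.448 over the decreased own regions, beside 0.355 and 0.298 over all regions of these directions.

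TEAD letters were also searched for in the promoters of these genes. RefSeq promoters on GRCm38.p6, from 250 bases before to 50 after each start, were matched for 7 of the 9 genes, with 10 promoters in all, and Tead1 and Tead4 had no entry. None of the 10 overlapped a differential region, but the share of all promoters that did was not counted. Over all regions, 15.2% of increased and 11.2% of decreased ones were promoter-proximal. TEAD letters were in a promoter of 5 of the 7 genes (71.4%) and in one of 8.0% of 27025 genes. Counted by single promoters, 6 of the 10 held the letters, with overlapping promoters at Wwtr1, beside 7.0% of all 32851 promoters. All 10 were rich in GC, and among 9691 single promoters with at least 60% GC the share was 4.14%. The letters occurred at Tead3, Yap1, Wwtr1, Vgll3 and Vgll4 and did not occur at Tead2 or Vgll2. AP-1, E-box and RUNX letters were in 0 of the 10, where 5.2%, 16.3% and 16.8% of all 32851 promoters held them. No share among promoters rich in GC was counted for these letters. A match describes letters and not a bound site. The matches upstream of the start of the promoter that holds them are shown with 10 bases on each side, in the orientation of the match. At Tead3 and Vgll4 the outermost annotated start of the gene lies farther upstream than the match.
Tead3 promoter, match at chr17:28350709-28350715: ctcattccgtACATTCCggccatcccc
Yap1 promoter, match at chr9:8004731-8004737: gcgcgtcgctACATTCCtgcagactcc
Wwtr1 promoter, match at chr3:57576040-57576046: gcgcctatctGCATTCCtttgagttta
Vgll3 promoter, match at chr16:65815125-65815131: ccgcctccccACATTCCggctaccctg
Vgll4 promoter, match at chr6:114969279-114969285: gcatttctcaGCATTCCccaccccact
Counted from the promoter's start position, the matches lay at -112 for Tead3, -138 for Yap1, -133 for Wwtr1, -61 for Vgll3 and -79 for Vgll4.

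Genes that regulate YAP and TAZ, together with Vgll1, were counted by their nearest regions. Of 26 such genes in all, 8 (30.8%) had an increased and 8 (30.8%) a decreased region, 2 had both and 12 had neither. The background over all protein-coding genes is 10.6% and 17.8%, and the genes of this list are long, with a median span of 63742 bp. Without the genes on chromosomes 4, 7, 10 and 16, 5 of the 22 others had an increased and 8 a decreased region. Their regions were 6 increased and 13 decreased, or 31.6% increased, beside 30.2% of all regions there. The core kinase genes Stk3, Stk4, Lats1 and Lats2, their partners Sav1, Mob1a and Mob1b, and Nf2 were all among those with neither. Of all protein-coding genes, 10.6% and 17.8% had such a region, but no share over genes of similar length was counted. These core genes were not counted as a list of their own, so nothing is drawn from their lack of regions. The regions of the list were at its other genes. Ptpn14, a phosphatase that holds YAP in the cytoplasm, had 5 decreased regions, the closest 791 bp from a start. Frmd6 had 2 increased and 1 decreased region, and the protocadherin gene Fat4 had 1 increased and 2 decreased regions, none of them within the gene. The LATS inhibitor genes of the Ajuba family each had 1 region near a start and were picked out after their values were seen. Ajuba had a decreased one at 107 bp and Limd1 an increased one at 940 bp, on chromosomes with 39.5% and 27.3% increased regions. Wtip had an increased one at 980 bp, on chromosome 7.

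Among known target genes of YAP, TAZ and TEAD, more had a decreased than an increased region, which also held over all protein-coding genes. Of 22 targets, 8 (36.4%) had an increased and 11 (50%) a decreased nearest region, 5 had both and 8 had neither, beside 10.6% and 17.8% of all protein-coding genes. Their regions were 17 increased and 51 decreased, so 25% were increased, beside 35.0% of all regions. Their median span of 33054 bp is also above that of all protein-coding genes, and Amotl2, Lats2 and Ptpn14 are in both lists. Without the genes on chromosomes 4, 7, 10 and 16, the 18 others had 13 increased and 49 decreased regions, or 21% increased, beside 30.2% of all regions there. TEAD letters were in the central 500 bp of 2 of the 17 increased (11.8%) and 9 of the 51 decreased ones (17.6%), beside 17.0% and 14.2% of all increased and decreased regions.

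Nt5e, which encodes the ectonucleotidase CD73, had the most regions, 6 increased and 5 decreased, and the directions were sorted by place. The 6 increased ones lay 80243 to 136042 bp upstream, and 4 of the 5 decreased ones lay inside the gene or within 34391 bp of its start. The other decreased one, at 102342 bp, lay among the increased ones. Asap1, a regulator of Arf GTPases, had 7 decreased regions inside the gene and 2 increased ones outside it. Igfbp3, a secreted binder of insulin-like growth factors, had 7 decreased regions, 3465 to 580556 bp from a start, and 1 increased region at 566994 bp, within that range. Tgfb2, a growth factor gene, had 7 decreased regions and no increased one. None of the 7 was inside the gene, and they lay 11125 to 205353 bp from a start. Rbms3 had 3 increased and 3 decreased regions, and Myof, Gadd45a and Ptpn14 had 5 decreased regions each. Those of Gadd45a all lay outside the gene, 49985 to 81231 bp from a start.

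The most used reporters of YAP activity are added here after their values were seen. Ccn2 had an increased region of 768 bp 665 bp from its start, at chr10:24594393-24595160, and 2 decreased regions more than 100 kb away, at 101935 and 136594 bp. That increased region lies on chromosome 10 with its high share of increased regions. Ccn1 had 1 increased region 16584 bp from its start, and Ankrd1 had none. The 4 muscle genes with an MCAT element, Tnnt2, Myh7, Acta1 and Myog, had no nearest region in either direction, but within 100 kb of a start 1 of them had an increased and 2 had a decreased region. At 10.6% and 17.8% of all protein-coding genes with a nearest region, 0 of 4 genes is near the background.

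**Figure D5:**
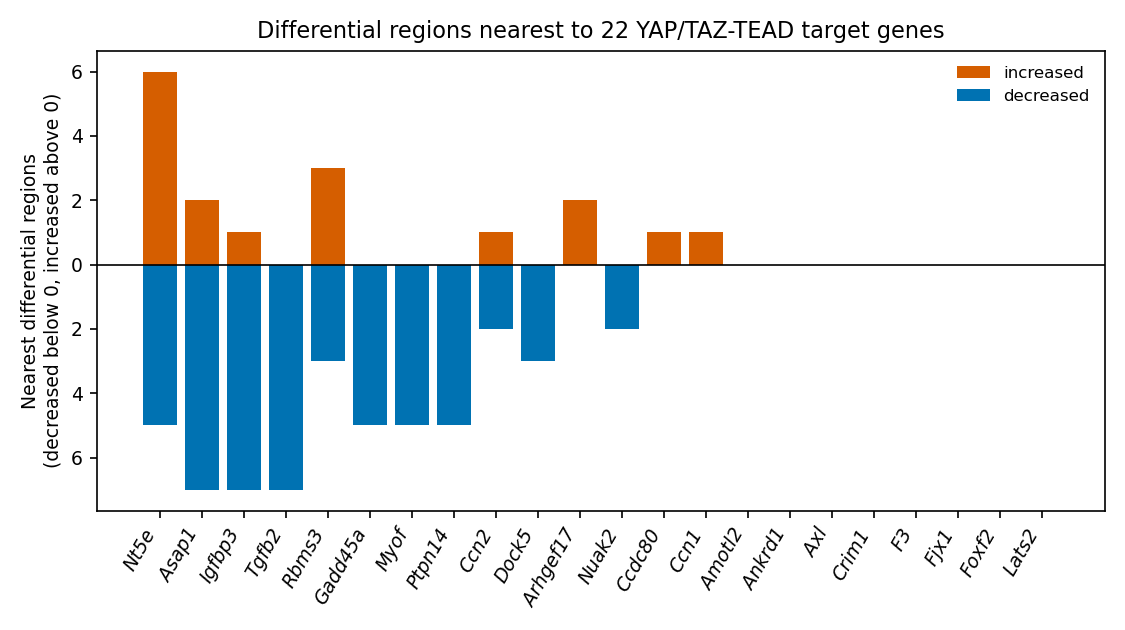
Number of nearest increased (up) and decreased (down, counted below 0) H3K27ac regions for each of 22 YAP/TAZ-TEAD target genes. Nt5e reaches 6 up and 5 down, Asap1, Igfbp3 and Tgfb2 reach 7 down, and 8 genes have no bar.

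At Nrip1 itself (chr16:76287400-76373827), 2 decreased regions lay inside the gene and 1 more was nearest to its start, with no increased region, on a chromosome where few regions were increased. Markers of the cells that such cultures can hold were counted in the same way, although a list of differences cannot show whether a cell type is present. The shares over all protein-coding genes are 10.6% with an increased and 17.8% with a decreased nearest region. Of 9 myotube markers, 1 (Myh3) had an increased and 0 a decreased region. Of 5 myoblast markers, 1 had an increased and 2 a decreased region, of which 8 of the 9 decreased regions were at Pax7 on chromosome 4, where 7.53% were increased. Of 6 fibroblast markers 2 had increased and 2 decreased regions, and of 3 endothelial markers 1 and 2. The part of the makeup of the cultures in the regions of the 9 genes was not tested.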

How the data were processed

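H3K27ac and IgG CUT&RUN libraries of Nrip1KO and Ctrl myotubes were grouped by their labels. The authors aligned paired reads to mm10 with BWA-MEM2 (BWA 2.2.1 in the submitters' processing notes), called broad peaks with HOMER 4.11 and kept regions differing by at least 2-fold between genotypes. The paper states that nuclei were pooled before they were divided between the antibodies. How replicates and IgG entered is not given in the sources used here. The labels and the methods name different suppliers of the H3K27ac antibody. The deposited lists, 1 per direction without a header, hold 3917 increased and 7263 decreased regions as positions in bp, and region names give the number of peaks joined. The deposited score is 1 in every region and was not used. A difference in depth or in the efficiency of the reaction between cultures would pass into such calls. Depth is unknown.

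Starts were converted to count from 1. On the assembled chromosomes 11179 regions were kept, none past a chromosome end of GRCm38.p6, and 1 on an unplaced sequence was left out. Genes and all transcript starts were from GENCODE M21 (55413 genes, 21938 protein-coding), promoters from RefSeq (GRCm38.p6). A region was placed by its centre. Counting and motif search were done in Python 3.11.15 with NumPy 2.4.6, SciPy 1.17.1 and pysam 0.24.0, plots with matplotlib 3.10.9, and were tested on simulated intervals and sequences. Intervals are Wilson 95% intervals for counting error. No test was made across genes or regions. The genes, lists and alternatives were chosen with earlier results of these data known. The text names the 9 genes, Nrip1, the neighbours nearest to their regions, up to 5 genes with more regions than Tead1, and the list genes with the most regions.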

Additional observations from a re-analysis of the deposited data

How the results depend on the processing

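Of 42 alternative counts, 25 stayed within 1.5 times the reported count or, for shares and medians, within the reported interval or spread, and 17 did not. The 22 increased regions became 9 inside the genes only, 9 at a width of at least 1 kb, 11 without Tead1 and 1 without chromosomes 4, 7, 10 and 16. The 25 decreased regions became 16 and 13 within 100 and 50 kb, 8 by the nearest start only, 5 inside the genes only and 13 at a width of at least 1 kb. The 16 increased and 8 decreased nearest regions became 6 and 4 when non-coding genes competed for the nearest start, and the 16 became 8 without Tead1. Without those 4 chromosomes the TEAD share was 0.0% of increased regions, of which only 1 was left, so that this value says nothing about stability, and 0.0% of the 21 decreased regions, and among own regions alone the decreased share was 25% (2 of 8). Within 100 kb of a start, the MCAT genes had 1 gene with an increased and 2 with a decreased region, beside 24.1% and 42.7% of all protein-coding genes. Leaving out Tead1 and counting own regions alone for the TEAD share were chosen after seeing the data, and fewer regions enter each narrower count by construction. No paired analysis was possible because the lists hold no value per library, and no replicate could be left out for the same reason.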
